A study of Mus musculus with 146 samples.

Results

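The hypothalamus of male C57BL/6J mice was compared after chronic intermittent ethanol vapor (CIE) and after air (Air). The libraries were chosen by the sex, treatment and region codes of their titles, which gave 18 of the 146 libraries in the series, 8 from CIE and 10 from Air mice, each from a different mouse. The tissue was taken as micropunches. All mice first had a choice of 15% ethanol and water in sessions of 2 h, on 5 days a week for 4 weeks. CIE mice then received an injection of ethanol (1.75 g/kg) with pyrazole (68.1 mg/kg), which inhibits alcohol dehydrogenase, and breathed ethanol vapor for 16 h of each day over 4 days. Air mice received the same dose of pyrazole in saline and sat in chambers with air on the same schedule. Each of 4 such cycles was followed by 72 h of rest and 5 days of drinking, and tissue was taken 7 days after a last exposure of 4 days. The design states 10 mice per group, and 8 CIE mice were analysed here. Female hypothalamus of the same strain and treatments (10 CIE and 8 Air) and the amygdala and prefrontal cortex of the same 18 males serve for comparison. The labels give no age.

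The hypothalamus holds small groups of neurons that release peptides governing feeding, arousal, fluid balance, reproduction and the stress axis, and it borders the ventricle and its choroid plexus. Heat shock proteins are chaperones that refold damaged proteins, and their genes are switched on by heat shock factor in response to heat, ethanol and other stress. Albumin and the apolipoproteins of plasma are made mostly by the liver, so their transcripts are scarce in brain tissue.

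Libraries held between 1686751 and 3367561 reads counted on genes, with a median of 2982674.5 in CIE and 2412596 in Air. CIE libraries also detected more genes, with a median of 21167.5 against 20148. All 43758 assignments of the libraries to groups entered an exact permutation test (two-sided), in which the p was 0.0380 for reads and 0.0181 for genes detected, and both were 0.0759 after adjustment over 6 library measures, so neither passed. The share of reads not assigned to a gene was also higher in CIE, with a median of 30.3% against 29.8% (0.0253, adjusted 0.0759), as was the share on mitochondrial genes, with 7.64% against 6.72% (0.0602, adjusted 0.0903). The part of these measures in the results was not tested. Levels are given as CPM, the reads of a gene per 1e+06 reads counted on genes in that library. The neuronal gene Snap25 ranged from 1156 to 1857 CPM in the 18 libraries. Nkx2-1, a transcription factor of the developing and adult hypothalamus, ranged from 3.29 to 72.7 CPM. The GABA neuron gene Gad2 lay between 358.7 and 1100.0 CPM, and Slc17a6, the vesicular glutamate transporter of the hypothalamus, lay between 114.1 and 427.4. Slc17a7, the transporter typical of cortex, was lower, between 10.5 and 53.4 CPM. Ddx3y on the Y chromosome was expressed in every library, at 111.1 to 165.9 CPM. Among blood markers, Hba-a1 had 0 reads in all 18 libraries, while the hemoglobin gene Hbb-bs ranged from 9.51 to 71.5 CPM and Alas2, an enzyme of heme synthesis, from 201.6 to 383.6. Region markers were less uniform. Summed thalamus markers exceeded summed hypothalamic transcription factors in Air mice 6, 12 and 14 and in CIE mice 5 and 18. The thalamus and hypothalamic sums were 1380 and 271.5 CPM in Air mouse 12, and 968.1 and 314.7 in CIE mouse 5. In every other library the thalamus sum was the lower. The markers of neurons and sex matched the labels, apart from Xist, a transcript of female cells, which is described next.

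Liver transcripts separated 4 of the 8 CIE libraries from all others. Alb, the albumin gene, reached 165.8, 99.1, 118.0 and 123.8 CPM in CIE mice 1, 2, 3 and 4. In the other 14 libraries it lay between 0.941 and 4.74 CPM. The 4 libraries are those above the limit of 50 CPM and are called Alb-high here. Since Alb set these libraries apart, it was left out of the following counts. Of the other 36 liver markers, 34 were higher in each Alb-high library than in any of the other 14, and 35 had at least 1 read in each of the 4. Of the 13102 genes with enough reads to be tested, 62 were higher in this way. These 13102 held 7 liver markers, of which 6 were higher in this way. Without Alb and Ttr, which is also a choroid plexus gene, the remaining 35 markers summed to 661.3 to 914.8 CPM in the Alb-high libraries, 54.5 to 78.9 in the other CIE libraries and 49.8 to 73.5 in Air. The most abundant of all 37 markers over the 18 libraries was Ttr. Markers of kidney, pancreas and adipose tissue did not show this: their summed levels in the Alb-high libraries were 1.01 to 1.89, 2.50 to 3.78 and 1.34 to 4.16 CPM, beside 0 to 10.1, 1.27 to 4.20 and 0.762 to 4.35 in Air.

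The same mice stood apart in the other brain regions. In amygdala the sum of the 35 markers was 537.4 to 1349 CPM in mice 1 to 4, 42.5 to 48.1 in the other CIE mice and 34.3 to 48.4 in Air. In prefrontal cortex it was 654.9 to 855.5 CPM in mice 1 to 4, 44.8 to 63.2 in the other CIE mice and 33.2 to 62.5 in Air. Xist also went against the labelled sex in these libraries, with 5.62, 7.94, 9.08 and 9.80 CPM in hypothalamus of mice 1 to 4. It lay between 0 and 3.35 CPM in the other 14 male libraries, and between 199.1 and 280.1 CPM in female hypothalamus. Results are therefore given with and without the 4 libraries, and both comparisons use the same 10 Air libraries.

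**Figure D1:**
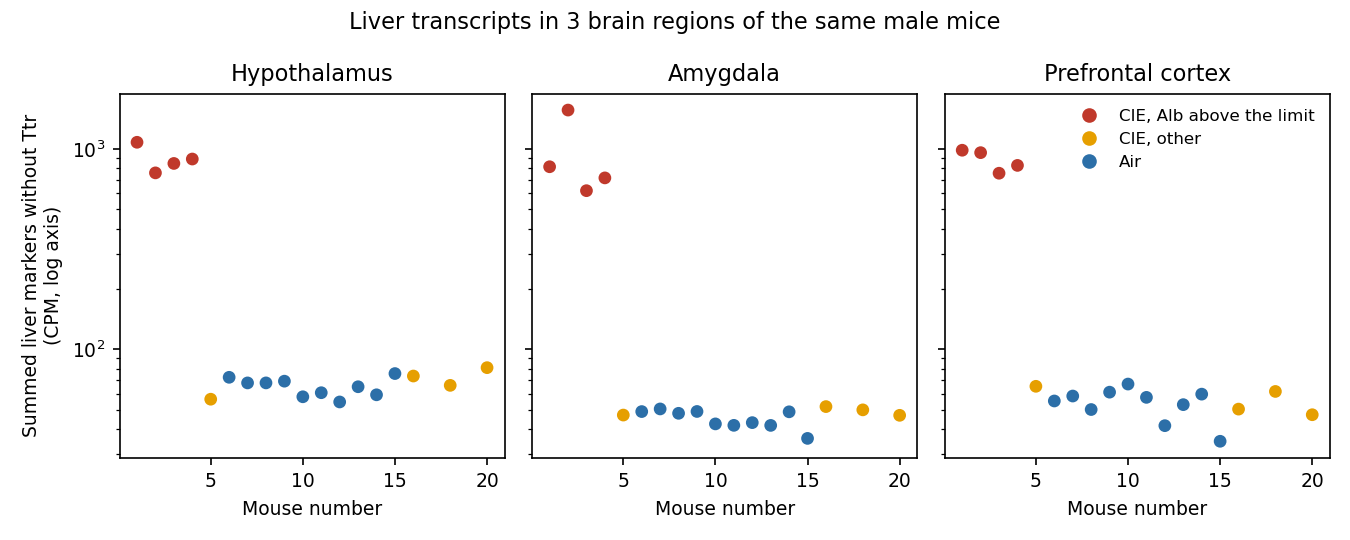
Summed CPM of 36 liver markers, Alb included and Ttr left out (log axis), for each male mouse by its number, in hypothalamus, amygdala and prefrontal cortex, with 1 point per library. CIE mice 1 to 4 lie at 619.6 CPM or above in all 3 regions, and every other mouse lies at 80.9 CPM or below.

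Across all genes, no gene differed between CIE and Air at a Benjamini-Hochberg adjusted p under 0.05 by the quasi-likelihood test of edgeR. The count was 0 of 13102 genes tested (0%), and 988 genes (7.54%) had an unadjusted p under 0.05, of which 537 were higher in CIE (4.1%) and 451 lower (3.44%). DESeq2, which kept more genes of low count, called 83 of 18478 (0.449%), 71 of them higher (0.384%) and 12 lower (0.0649%), and 25 of the 83 were among the 13102 that edgeR tested, while limma called 1 gene with voom and 0 on the deposited voom values. The lowest edgeR adjusted p was 0.0990. Leaving out CIE mouse 5, which is not Alb-high, gave 7 genes called by edgeR. They were Hspa1b, which was lower in CIE, and the plasma protein genes Apoa2, C3, Rbp4, Apoc3, Apoa1 and Apoc1. Each plasma protein gene was higher in every Alb-high library than in any other (Apoc1 was named after its values were seen). Leaving out Air mouse 8 gave 2, and Air mice 12, 14 and 15 gave 1 each. The median log2 fold change was 0.00, with a median standard error of 0.10, and 162 genes exceeded 0.5 in either direction.

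Without the 4 Alb-high libraries, the comparison rested on 4 CIE and 10 Air libraries. edgeR then called 0 of 13360 genes (0%), 600 genes (4.49%) had an unadjusted p under 0.05, 278 of them higher (2.08%) and 322 lower (2.41%), and DESeq2 called 1. The lowest edgeR adjusted p was 0.660. Of the 71 genes that DESeq2 called higher with all 18 libraries, 64 were higher in each Alb-high library than in any other, and 26 of the 37 liver markers were among the 71. Alb, which set these libraries apart, is in both counts. Of the 13102 genes that edgeR tested, 62 were higher in each Alb-high library than in any other. Since most liver markers had few reads outside the Alb-high libraries, their count is not set beside the share of all genes. The other 7 of the 71 were Rps26, Ncl, Il31ra, Ccn3, Rpl9-ps6, C1rl and Iigp1, of which all but Rps26 and Ncl were named after their values were seen. The genes that DESeq2 called lower were Hspa1b, Dnajb1, Hspa1a, Lfng, Phf23, Ttll11, Hsp25-ps1, Pxk, Fn3k, Hspb1, Chordc1 and Hsp90aa1, and 5 of the 26 genes on the list of chaperones are among these 12, beside 0.0649% of all genes. Hspb1, Chordc1 and Hsp90aa1 were likewise named after their values were seen, and the list of chaperones was written with earlier results of these data known.

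Hspa1b, Hspa1a and Dnajb1 had lower values in CIE hypothalamus, with and without the Alb-high libraries. None of them passed in edgeR with all 18 libraries and the filter on low counts. With no filter all 3 passed, at adjusted p of 0.00256, 0.00971 and 0.00750. That fit called 116 genes, and 98 of them had each Alb-high library above all others. An adjusted p depends on all genes of its fit, and with no filter 0 genes passed without the Alb-high libraries. Over all alternatives the adjusted p of Hspa1b, Hspa1a and Dnajb1 ranged from 0.000595, 0.00877 and 0.00431 with DESeq2 to 0.996 without the Alb-high libraries. Hspa1b also passed with a filter of at least 1 CPM (0.04995), without CIE mouse 5 (0.0450) and without Air mouse 8 (0.0147), 14 (0.0392) or 15 (0.0398). Air mice 8, 14 and 15 were among the 4 Air mice lowest in Hspa1b, so leaving out any of them raised the Air level. The fit without CIE mouse 5 also called the 6 plasma protein genes given above. Hspa1b, which encodes an inducible chaperone of the Hsp70 family, was at 6.05 CPM in the lowest CIE library, 12.9 at the median and 18.1 in the highest, and in Air at 18.0, 39.3 and 82.7. The CIE libraries sat at the bottom of the range, and the groups met only where the highest CIE mouse touched the lowest Air mouse. Its fitted log2 fold change came to -1.65, with a standard error of 0.29 and an edgeR adjusted p of 0.0990, and 8 of 8 CIE libraries lay below the Air median. Without the Alb-high libraries it was -1.69 (0.39, edgeR adjusted p = 0.996). Its neighbour Hspa1a had 14.0, 22.6 and 27.8 CPM in CIE against 24.1, 40.8 and 87.3 in Air, with a log2 fold change of -0.99 (0.22, edgeR adjusted p = 0.164). The coding regions of these neighbouring genes are nearly identical. Reads that fit both genes may have been dropped for low alignment quality or split between them, so the share of each is uncertain.

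Hspa1b (ENSMUSG00000090877.3) lies on chromosome 17 of GRCm38 from 34956436 to 34959238 and Hspa1a (ENSMUSG00000091971.3) from 34969190 to 34972156, both on the minus strand. Since heat shock factor binds inverted repeats of the unit GAA, the promoters of heat shock genes were searched for GAANNTTC and TTCNNGAA, each of which reads the same on both strands. Windows of 300 bases around the start of each gene came from RefSeq on GRCm38.p6. GAANNTTC was present in 7.86% of all 32851 promoters, TTCNNGAA in 8.52% and either in 15.1%. Of the 26 genes on the chaperone list, 21 had a promoter in the table and 7 of these held a match (33.3%), beside 17.0% of all 27025 genes. The promoters of Hspa1b, Hspa1a and Hspb1, and of Chordc1, which was named after its values were seen, are shown as examples of genes with lower values in CIE whose window held a match. Capitals mark the matches, which in Chordc1 overlap. The windows are chr17:34959189-34959488, minus strand (Hspa1b), chr17:34972107-34972406, minus strand (Hspa1a), chr5:135887669-135887968, plus strand (Hspb1) and chr9:18292017-18292316, plus strand (Chordc1). A match describes these letters only.
Hspa1b: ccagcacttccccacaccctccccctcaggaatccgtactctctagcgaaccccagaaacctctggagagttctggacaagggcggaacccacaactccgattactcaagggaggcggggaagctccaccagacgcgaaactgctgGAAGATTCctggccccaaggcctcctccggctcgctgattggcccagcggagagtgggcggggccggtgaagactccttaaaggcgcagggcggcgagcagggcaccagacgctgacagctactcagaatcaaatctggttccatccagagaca
Hspa1a: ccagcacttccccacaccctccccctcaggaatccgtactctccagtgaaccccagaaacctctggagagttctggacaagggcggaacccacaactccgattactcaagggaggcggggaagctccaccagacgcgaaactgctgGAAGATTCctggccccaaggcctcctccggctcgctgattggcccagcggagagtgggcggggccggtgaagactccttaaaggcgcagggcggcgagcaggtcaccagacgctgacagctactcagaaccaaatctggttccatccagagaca
Hspb1: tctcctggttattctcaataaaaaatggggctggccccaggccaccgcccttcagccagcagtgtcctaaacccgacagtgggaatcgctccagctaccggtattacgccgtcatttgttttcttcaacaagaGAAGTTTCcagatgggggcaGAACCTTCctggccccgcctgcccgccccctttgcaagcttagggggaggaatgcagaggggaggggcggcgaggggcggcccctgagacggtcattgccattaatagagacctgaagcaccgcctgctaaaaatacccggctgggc
Chordc1: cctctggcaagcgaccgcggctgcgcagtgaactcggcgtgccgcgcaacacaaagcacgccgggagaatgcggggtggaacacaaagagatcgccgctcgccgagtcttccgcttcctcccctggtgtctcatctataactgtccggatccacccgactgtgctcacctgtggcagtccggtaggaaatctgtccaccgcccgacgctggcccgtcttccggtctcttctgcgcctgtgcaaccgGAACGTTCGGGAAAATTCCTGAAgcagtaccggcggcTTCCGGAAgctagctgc

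The Hspa1b and Hspa1a windows were identical at 296 of 300 positions, and each held 1 match to GAANNTTC. Hspb1 held 2 matches to GAANNTTC and none to TTCNNGAA, and Chordc1 held 2 and 3. Both promoter windows of Dnajb1 held neither. The other list members with a match were Hsph1, Hspe1, Dnaja1 and Hspd1, of which Hspd1 was not lower in CIE with all libraries. Windows of Hspe1 and Hspd1, which lie head to head, overlap and share their matches, so the 7 members do not stand for 7 separate sequences. Outside the heat shock genes, windows of Lfng, Phf23 and Rnpep, also lower in CIE, were searched. Lfng held 1 match to TTCNNGAA, and Phf23 and Rnpep held no match to either.

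Dnajb1, which encodes a co-chaperone of Hsp70, had 87.0 CPM in the lowest CIE library, 106.6 at the median and 124.7 in the highest, and 118.9, 140.2 and 213.5 in Air. Its groups overlapped at the upper end of CIE, where the highest CIE libraries lay among the lowest in Air. With all libraries its log2 fold change was -0.48, with a standard error of 0.10 and an edgeR adjusted p of 0.164, and it was -0.50 (0.13) without the Alb-high libraries. Hspb1, a small heat shock protein, had a log2 fold change of -0.93 (0.23), and Hsp25-ps1, a pseudogene of it on chromosome 13, one of -0.94 (0.22). Reads that fit both members of this pair may also have been dropped or split, so both values are uncertain. Hsp90aa1, the inducible Hsp90, had a log2 fold change of -0.16 (0.04), and the cochaperone Chordc1 of -0.27 (0.07). Hsph1 had -0.24 (0.08) with all libraries, -0.13 (0.10) without the Alb-high libraries and -0.03 with the liver sum as a covariate. Hspb1, Hsp90aa1, Hsph1 and Chordc1 were named after their values were seen.

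Of the 26 genes on the list of chaperones and unfolded protein response, all were tested, 0 were called by edgeR, 23 were lower in CIE and 3 higher. In all genes, 6506 of 13102 were lower. An unadjusted p under 0.05 was reached by 13 members in the lower direction and by 1 in the higher, beside 3.44% and 4.1% of all genes. The list was written with earlier results of these data known, so its counts beside all genes only describe it. The list's median log2 fold change was -0.12, beside 0.00 over all genes. Without the Alb-high libraries, 23 were lower and 3 higher, 9 reached that p in the lower direction, beside 2.41% of all genes, and the median was -0.14. The higher members included Hspa8, the constitutive Hsp70, with a log2 fold change of 0.27 (standard error 0.10), or 0.15 (0.12) without those libraries. Another was Hspd1, a mitochondrial chaperone, at 39.9 to 59.2 CPM in Air and 41.1 to 62.1 in CIE, which was higher in 15 of 30 fits and lower in 15, so that no direction can be given. Hspa8 and Hspd1 were named after their values were seen. The summed level of the list was 4568 to 5412 CPM in CIE, with a median of 4917, and 5015 to 6013 in Air, with a median of 5419, so the groups overlapped. Hsp90ab1, the constitutive Hsp90 and the most abundant member, had 1174 to 1343 CPM in CIE and 1296 to 1543 in Air. In whole tissue, fewer cells of a type and less RNA per cell cannot be told apart.

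**Figure D2:**
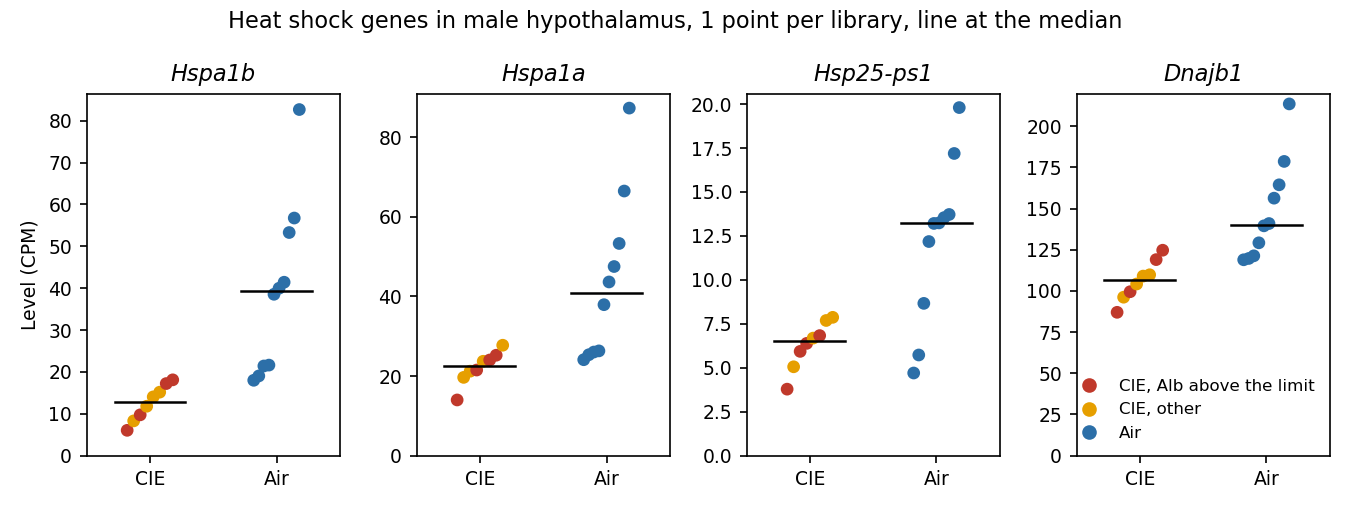
CPM of Hspa1b, Hspa1a, Hsp25-ps1 and Dnajb1 in each male hypothalamus library, with 1 point per library, a line at the group median and the y axis from 0. CIE libraries sit low for each gene whether or not they are Alb-high, and Air libraries spread upward, for Hspa1b from 18.0 to 82.7 CPM.

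Air mice were divided in their levels of Hspa1b and Hspa1a, with the same mice low in all 3 regions, which did not hold for Dnajb1. Hspa1b in hypothalamus was 18.0 to 21.6 CPM in Air mice 8, 11, 14 and 15, and 38.5 to 82.7 in the other 6. The same 4 mice were the lowest Air mice in amygdala (14.6 to 21.6 CPM, beside 35.2 to 62.3) and in prefrontal cortex (20.9 to 27.9, beside 33.5 to 68.1). They were also the lowest 4 for Hspa1a in all 3 regions. For Dnajb1, the lowest Air mice in hypothalamus were 11, 12, 14 and 15, all 4 of them were the lowest in prefrontal cortex, and 2 of the 4 were among the lowest 4 in amygdala (89.0 to 105.2 CPM, beside 94.1 to 155.8). CIE mice had 7.23 to 20.4 CPM of Hspa1b in amygdala and 13.3 to 23.6 in prefrontal cortex, which overlapped these 4 Air mice and none of the other 6. In female hypothalamus Hspa1b was low in both treatments, at 9.13 to 22.0 CPM in Air and 5.38 to 17.7 in CIE. The sex-by-CIE term of Hspa1b, male minus female, was -1.31 (standard error 0.39, edgeR adjusted p = 0.613), and the region-by-CIE terms, hypothalamus minus the other region, were -0.25 (0.45) for amygdala and -0.59 (0.37) for prefrontal cortex, so no difference in response between sexes or regions passed. The regions share mice and the labels give no batch, and the source of the division among Air mice was not tested.

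Ttr, which encodes the thyroid hormone carrier transthyretin and is made by choroid plexus and liver, had the smallest p among genes higher in CIE. It was at 106.3 CPM in the lowest CIE library, 125.9 at the median and 147.3 in the highest, and in Air at 2.46, 17.1 and 107.9. All CIE libraries were high, Alb-high or not, and only Air mouse 12 reached their range. The fitted log2 fold change came to 2.04, with a standard error of 0.41 and an edgeR adjusted p of 0.164, and to 2.14 (0.54) without the Alb-high libraries, and 8 of 8 CIE libraries lay above the Air median. The same Air mice were low in hypothalamus and prefrontal cortex, but not in amygdala. Air mice 6, 7, 8 and 9 had 2.46 to 5.47 CPM in hypothalamus and 2.16 to 6.10 in prefrontal cortex, and the other 6 had 13.4 to 107.9 and 11.3 to 69.7. CIE mice had 94.1 to 171.8 CPM in prefrontal cortex. In amygdala 2 of these 4 mice were among the lowest 4 of Air (13.1 to 86.0 CPM, beside 18.8 to 4608). Ttr there ranged from 13.1 to 4608 CPM in Air and from 103.5 to 7316 in CIE, and the groups overlapped. In female hypothalamus it was 5.21 to 62.4 CPM in Air and 3.21 to 67.5 in CIE. Of the 11 choroid plexus markers other than Ttr, 6 were tested, 5 were higher and 0 reached an unadjusted p under 0.05 (edgeR called 0). Their median log2 fold change was 0.16, or 0.01 without the Alb-high libraries. They summed to 38.5 to 82.4 CPM in CIE and 44.6 to 69.7 in Air, which overlapped, with Clic6 the most abundant and no marker at 0 in all libraries. The part of choroid plexus tissue in the level of Ttr was not tested.

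**Figure D3:**
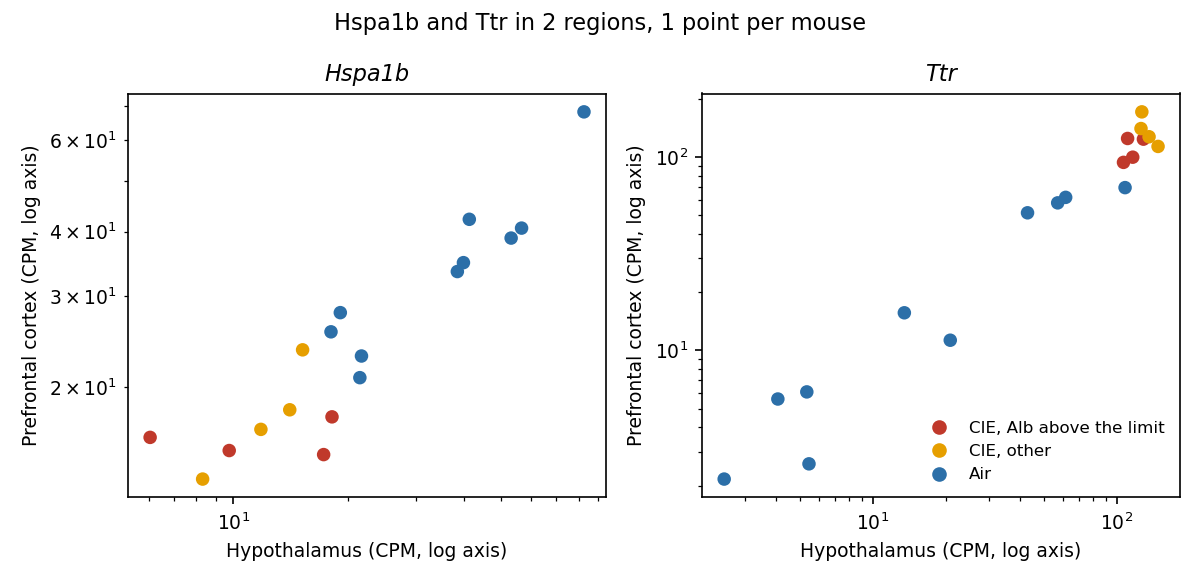
CPM of Hspa1b and of Ttr in hypothalamus (x, log axis) and prefrontal cortex (y, log axis), with 1 point per male mouse. Air mice lie in separate clumps for both genes, and for Ttr the 8 CIE mice lie at 94.1 CPM or above on both axes.

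The other genes of smallest p in the higher direction divided by their dependence on the Alb-high libraries. Apoa2, Apoc3, Rbp4, C3 and Apoa1, plasma proteins of the liver, were among them. Apoa2 had 37.1 to 54.9 CPM in the Alb-high libraries, 1.85 to 6.02 in the other CIE libraries and 1.90 to 6.79 in Air. Its log2 fold change was 2.45 (standard error 0.52) with all libraries and -0.06 (0.30) without the Alb-high ones, so its value came from those 4 libraries. C3, Rbp4 and Apoa1 went from 2.31, 1.86 and 1.40 to 0.23, 0.10 and 0.20. Of 37 liver markers, 7 reached the filter on low counts with all libraries and 6 without the Alb-high ones. Apoc3 reached it only with the Alb-high libraries, so the direction of these markers is not counted.

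With 43758 assignments of the libraries to groups, 1 gene of 13102 without overlap can arise by chance. Abcb4, a phospholipid transporter of the bile canaliculus, was the only gene of 13102 whose groups did not overlap (0.00763%). It had 6.99 to 11.8 CPM in CIE and 4.50 to 6.79 in Air, with a log2 fold change of 0.69, a standard error of 0.14 and an edgeR adjusted p of 0.164, or 0.44 (0.16) without the Alb-high libraries. Rps26, a protein of the small ribosomal subunit, had 10.4 to 19.1 CPM in CIE and 2.96 to 11.4 in Air, with a log2 fold change of 0.83 (0.18), and 0.75 (0.22) without the Alb-high libraries. Ribosomal protein genes have many processed copies in the genome, so their counts are uncertain. Ncl, which encodes nucleolin, had 298.2 to 345.6 CPM in CIE and 247.2 to 300.5 in Air, with a log2 fold change of 0.20 (0.05). Ass1, argininosuccinate synthase of the urea cycle, went from 0.86 (0.19) to 0.30 (0.18) without the Alb-high libraries.

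In the lower direction, the other genes of smallest p were also lower without the Alb-high libraries. Ttll11, a tubulin polyglutamylase, had 40.0 CPM in the lowest CIE library, 41.5 at the median and 46.6 in the highest, against 42.1, 53.8 and 57.4 in Air. Its CIE libraries formed a narrow band at the bottom of the Air range. Ttll11 had a log2 fold change of -0.31, with a standard error of 0.06 and an edgeR adjusted p of 0.164, and of -0.32 (0.08) without the Alb-high libraries. Lfng, a glycosyltransferase that modifies Notch, had 35.0 to 49.1 CPM in CIE and 41.4 to 68.5 in Air, with a log2 fold change of -0.43 (0.09), or -0.39 (0.13) without those libraries. Phf23, Pxk, Fn3k and Rnpep had log2 fold changes of -0.34, -0.27, -0.31 and -0.27, and -0.22, -0.26, -0.25 and -0.29 without the Alb-high libraries.

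The comparison without the Alb-high libraries brought other genes to the top of the order. Tnrc6b, a partner of Argonaute in silencing by miRNAs, had 169.2 to 179.7 CPM in the 4 remaining CIE libraries and 198.0 to 223.4 in Air, with 202.4 to 221.4 in the Alb-high libraries. The Alb-high libraries thus lay within the Air range and the other CIE libraries below it. Tnrc6b had a log2 fold change of -0.27 there, with a standard error of 0.05 and an edgeR adjusted p of 0.660, and -0.11 (0.06) with all libraries. Uty, on the Y chromosome, had 12.4 to 17.0 CPM in the 4 remaining CIE libraries, 19.2 to 23.5 in the Alb-high libraries and 16.8 to 25.8 in Air, so its remaining CIE libraries met the bottom of the Air range. G6pc3, a glucose-6-phosphatase, had 85.6 to 92.3 CPM in the 4 remaining CIE libraries and 59.7 to 84.3 in Air, with a log2 fold change of 0.28 (0.07), and 0.21 (0.06) with all libraries. Mt1, a metallothionein, had a log2 fold change of 0.19 with and without the Alb-high libraries. P2ry1, a purine receptor, had -0.46 with and -0.69 without them.

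Hypothalamic neuropeptides varied widely between libraries of the same group. Of 32 genes on this list, which also holds the enzymes Th and Hdc, 26 were tested, 0 were called by edgeR, 17 were higher and 9 lower. Hcrt, Tac2, Vip, Grp and Gal reached an unadjusted p under 0.05, all in the higher direction, beside 4.1% of all genes. The median log2 fold change was 0.18, and 0.02 without the Alb-high libraries, where 13 were higher and 13 lower. Hcrt, the arousal peptide hypocretin, had 250.6 CPM in the lowest CIE library, 653.2 at the median and 1675 in the highest, and 51.0, 266.6 and 942.1 in Air. The CIE libraries were shifted upward within a broad overlap, with a log2 fold change of 1.09, a standard error of 0.51 and an edgeR adjusted p of 0.641, or 0.77 (0.62) without the Alb-high libraries. Pmch, the melanin-concentrating hormone of the same lateral area, had a log2 fold change of 0.42 (0.37).

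By the standard deviation of log2 values, the peptides of the magnocellular neurons spread the most. It was 2.16 for Avp and 2 for Oxt in Air, and 2.01 and 1.85 in CIE. Oxt, oxytocin, ranged from 17.6 to 2266 CPM in Air and from 31.9 to 1485 in CIE. Avp, vasopressin, ranged from 2.10 to 414.4 CPM in Air and from 7.39 to 285.7 in CIE, a 197-fold range in Air. Oxt lay below the Air median in 7 of 8 CIE libraries, with a log2 fold change of -1.0 (standard error 0.63), or -1.68 (0.81) without the Alb-high libraries. Avp lay below it in 5 of 8, with -0.63 (0.64), or -1.33 (0.85) without those libraries. Single mice moved both values: Oxt was -1.53 without CIE mouse 4 and -0.73 without Air mouse 6, and Avp -1.03 without CIE mouse 4 and -0.36 without Air mouse 8. Neither passed in edgeR. Vip, made in the suprachiasmatic nucleus, went from 0.68 (0.27) to -0.02 (0.31) without the Alb-high libraries, while Tac2 went from 0.49 (0.19) to 0.55 (0.23). Among the feeding peptides, Cartpt had a log2 fold change of 0.12 (0.25), or -0.06 without the Alb-high libraries, and Npy one of -0.28 (0.29), or -0.62 (0.38), and -0.03 without Air mouse 15. Pomc had a median of 9.43 CPM in CIE and 9.79 in Air, and a log2 fold change of -0.55 (0.30) without the Alb-high libraries. Sst, somatostatin, and Trh, thyrotropin-releasing hormone, had -0.30 (0.20) and 0.07 (0.22), or -0.42 and -0.17 without those libraries. Single mice moved these too: Sst was -0.39 without Air mouse 15 and -0.18 without Air mouse 8. Trh was -0.06 without CIE mouse 4 and 0.17 without CIE mouse 18. Crh, the peptide that drives the stress axis, had -0.03 (0.30), or -0.42 (0.37) without the Alb-high libraries and -0.33 without CIE mouse 4 alone. Ucn3, a urocortin, went from -0.32 (0.53) to -1.97 (0.68), with -1.10 when CIE mouse 4 alone was left out and -0.09 without Air mouse 7. It was the 1 neuropeptide of 26 tested that was lower at an unadjusted p under 0.05 without the Alb-high libraries, beside 2.41% of all genes. Tac2 was the 1 that was higher at that p, beside 2.08%.

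**Figure D4:**
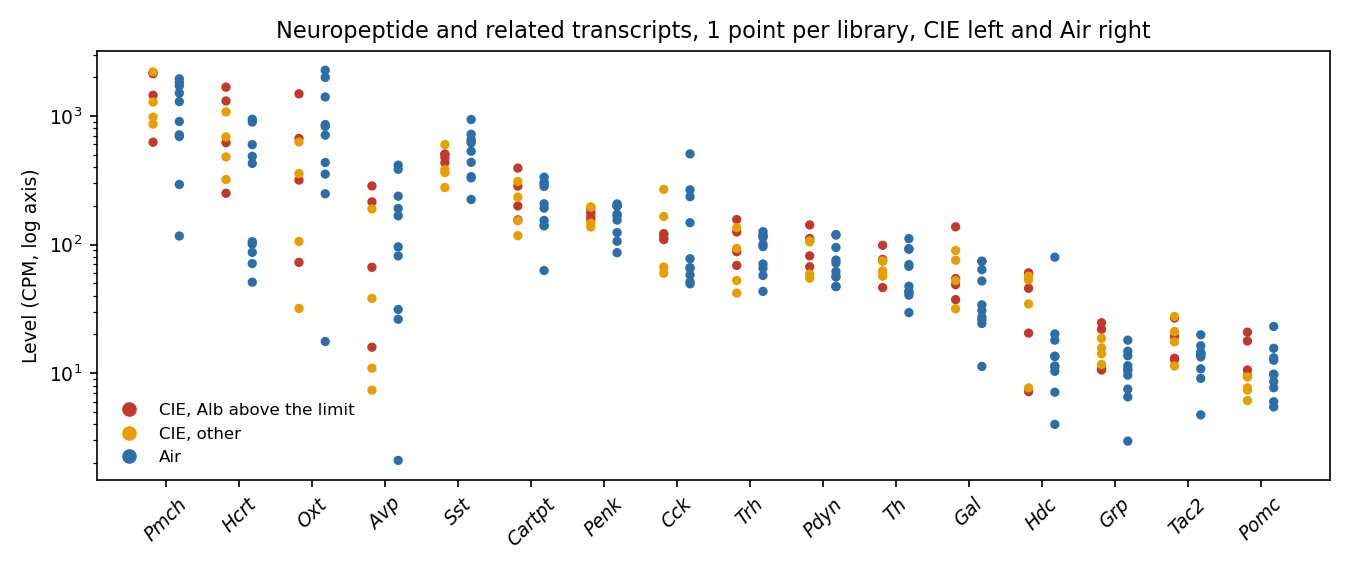
CPM (log axis) of 16 neuropeptide and related genes in each male hypothalamus library, with CIE to the left and Air to the right of each name and 1 point per library. The groups overlap for every gene shown. Oxt and Avp have the largest standard deviations of log2 values, with ranges from 17.6 to 2266 and from 2.10 to 414.4 CPM in Air.

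Markers of other regions and cell types varied between libraries. Thalamus markers summed to 106.7 to 968.1 CPM in CIE and 89.6 to 1380 in Air, led by Tcf7l2. Cortex and amygdala markers summed to 273.2 to 483.6 CPM in CIE and 263.5 to 608.3 in Air, led by Nrn1. Both sums overlapped between the treatments. Of 9 cortex and amygdala markers tested 6 were higher, 3 of them with an unadjusted p under 0.05, beside 4.1% of all genes, and the median log2 fold change was 0.37. Without the Alb-high libraries 0 reached that p (edgeR called 0) and the median was -0.03. Of 7 thalamus markers tested 6 were lower, with a median of -0.13, and without those libraries 7 of 8 were higher, with a median of 0.24. The list of hypothalamic transcription factors gave 8 higher and 11 lower of 19 tested, with 3 in the higher direction at an unadjusted p under 0.05, beside 4.1% of all genes. There were again 3 without the Alb-high libraries, beside 2.08%. Bsx, a homeobox factor needed for feeding behaviour, was among these, with 4.03 to 22.8 CPM in CIE and 0 to 20.2 in Air and a log2 fold change of 1.63 (standard error 0.51) without the Alb-high libraries. All 8 CIE libraries lay above its Air median. The list of hypothalamic factors as a whole did not lean this way, with a median log2 fold change of -0.05, or -0.13 without the Alb-high libraries. In that second comparison 8 of 21 tested were higher and 13 lower. Six3, the most abundant member, had all 8 CIE libraries below its Air median. Its log2 fold change was -0.56 (0.28), or -0.735 (0.393) without the Alb-high libraries. Of 11 ependymal and tanycyte markers tested 9 were higher, or 6 without the Alb-high libraries, and Crym, typical of tanycytes, had 13.6 to 27.6 CPM in CIE and 9.04 to 21.9 in Air, with a log2 fold change of 0.65 (0.17), or 0.39 (0.20) without those libraries. Neuron and astrocyte markers had median log2 fold changes of -0.04 and -0.02, or 0.04 and -0.01 without the Alb-high libraries. Oligodendrocyte and myelin markers had 8 of 12 higher, with a median of 0.04, and 11 of 12 without those libraries, with a median of 0.16. Microglia markers had 8 of 10 members higher, with a median of 0.08, or 0.07 without the Alb-high libraries. Striatum markers summed to 271.4 to 301 CPM in the Alb-high libraries, 207.3 to 226 in the other CIE libraries and 199.9 to 257.7 in Air. Their median log2 fold change was 0.11, or -0.10 without the Alb-high libraries. Meningeal fibroblast markers summed to 894.7 CPM in Air mouse 15, the highest in Air, and to 190.6 to 276.3 in CIE. The part of dissection in any of these values was not tested.

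In the immune lists, edgeR called 0 members with the filter on low counts. NF-kB and cytokine genes had 8 of 15 tested higher, with a median log2 fold change of 0.00, or -0.02 without the Alb-high libraries. Of 3 acute phase genes tested 1 was higher, with a median of -0.10. Of 10 genes of the MHC class I list tested, 8 were higher, 5 of them with an unadjusted p under 0.05, beside 4.1% of all genes, and the median log2 fold change was 0.28. Without the Alb-high libraries 8 were again higher, 0 reached that p (edgeR called 0) and the median was 0.14. B2m, the shared light chain of class I, had 87.7 to 136.3 CPM in CIE and 78.0 to 104.2 in Air, and its log2 fold change went from 0.28 (standard error 0.08) to 0.10 (0.08) without those libraries. For the interferon response list, 20 of 25 genes tested were higher with a median of 0.17, and 18 of 27 with a median of 0.05 without the Alb-high libraries. Rtp4 and Ifngr2 were exceptions, with log2 fold changes of 0.71 and 0.31 that became 1.03 and 0.37. With all libraries, the Rtp4 value fell as low as 0.40 when single mice were left out. Rtp4 was highest in CIE mice 20 (14.04 CPM) and 16 (8.945). CIE mice 5 (2.461 CPM) and 18 (3.935) lay within its Air range of 2.33 to 5.33. C4b, a complement component, had 7.00 to 15.5 CPM in CIE and 0 to 9.88 in Air (1.01, 0.25), and 0.70 without the Alb-high libraries. It was called by edgeR with no filter (adjusted p of 0.0436), and its edgeR adjusted p was 0.996 without the Alb-high libraries. DESeq2 called C4b (0.0104), C3 (0.0285) and H2-Q10 (0.000764), each higher in every Alb-high library than in any other, and H2-Q10 was named after its values were seen. It also called Iigp1 (0.0295), C1rl (0.0250) and Il31ra (0.01825) higher, which the Alb-high libraries did not separate in this way.

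Lists of protein and lipid synthesis had similar medians with and without those libraries. Of 62 ribosomal protein genes tested 40 were higher, 13 with an unadjusted p under 0.05 in that direction and 2 in the lower, beside 4.1% and 3.44% of all genes. These were 5 and 1 without the Alb-high libraries, beside 2.08% and 2.41%. The median log2 fold change was 0.05, or 0.06 without the Alb-high libraries. Of 21 genes of cholesterol synthesis 17 were higher, with a median of 0.06, and 19 with a median of 0.09 without those libraries. The stress axis list, which holds genes induced by glucocorticoids, had 15 of 21 members lower, with a median of -0.08, or -0.14 without the Alb-high libraries. At an unadjusted p under 0.05 there were 2 members higher and 2 lower, beside 4.1% and 3.44% of all genes. Mt1, the most abundant, was among the higher, with a log2 fold change of 0.19 (standard error 0.06). Plin4, a lipid droplet protein, and Tsc22d3, a glucocorticoid-induced leucine zipper protein, had log2 fold changes of -0.70 (standard error 0.20) and -0.33 (0.10), or -0.54 and -0.22 without those libraries. Jun, an immediate early gene, had 37.1 to 56.4 CPM in CIE and 49.5 to 78.6 in Air (-0.34, 0.09), and 14 of 16 genes of that list were lower without the Alb-high libraries, against 9 of 16 with all. Genes of GABA and glutamate signaling had medians of 0.03 and -0.04.

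Other lists are given by their counts, with the values without the Alb-high libraries second. Nuclear genes of oxidative phosphorylation had 41 of 71 tested higher, 7 with an unadjusted p under 0.05 in that direction and 1 in the lower, beside 4.1% and 3.44% of all genes, with a median log2 fold change of 0.02. In the second comparison 46 of 71 were higher, 5 with that p, beside 2.08%, and the median was 0.03. Ubiquitin and proteasome genes had 20 of 38 higher and then 27 of 38, with medians of 0.01 and 0.04. Translation initiation genes had 17 and then 22 of 27 higher, with medians of 0.02 and 0.04. Antioxidant genes had 13 and then 10 of 16 higher, with medians of 0.05 and 0.01. Ion channels had 18 of 25 lower in both, with medians of -0.05 and -0.06, and clock genes 11 and then 10 of 16, with medians of -0.04 and -0.03. Receptors for peripheral hormones, through which the hypothalamus reads the state of the body, had 12 higher and 12 lower, and then 9 and 15. Genes of opioid signaling had 4 of 7 higher in both, with medians of 0.02 and 0.06. Of 8 genes of endocannabinoid signaling 7 were lower and then 3, with medians of -0.04 and 0.01.

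**Figure D5:**
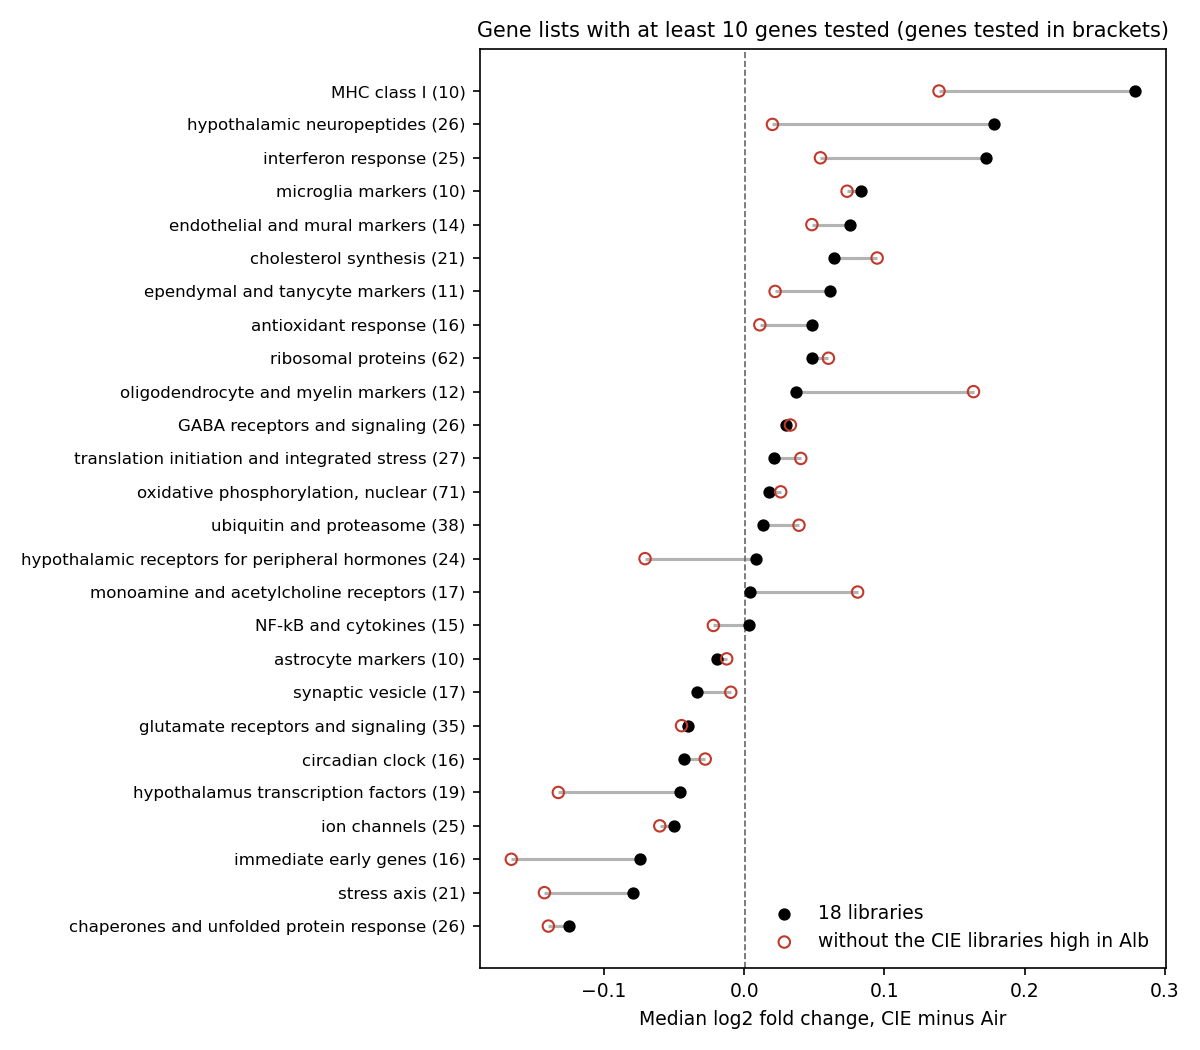
Median log2 fold change (CIE minus Air) of each gene list with at least 10 genes tested, with the number tested in brackets, for all 18 libraries (filled) and without the Alb-high libraries (open), and a dashed line at the median of all genes. With all 18 libraries the chaperone list lies lowest, at -0.12, and the MHC class I list highest, at 0.28; without the Alb-high libraries these are the immediate early genes, at -0.17, and the myelin list, at 0.16.

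The response in male hypothalamus was also compared with that in female hypothalamus and with that in amygdala and prefrontal cortex of the same males. edgeR called 0 of 13523 genes (0%) for the sex-by-CIE term, 0 of 13778 for the region-by-CIE term with amygdala and 0 of 13877 with prefrontal cortex, and DESeq2 called 0 in each. The genes with an unadjusted p under 0.05 numbered 789, 425 and 376. With the mouse as a replicate block, the region terms again gave 0 genes, by edgeR (516 and 490 at an unadjusted p under 0.05) and by limma (511 and 449), with block correlations of 0.0733 and 0.0694. A p that misses the threshold does not show that the responses were alike.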

How the data were processed

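TagSeq, which sequences the 3′ ends of transcripts, was applied to male hypothalamus, with female hypothalamus and male amygdala and prefrontal cortex used for comparison, 72 libraries in all. The authors deposited raw counts of reads per gene for each library, without normalization. Log2 values from voom were also deposited, and they entered an alternative only. The submitters' processing notes name Bowtie2, SAMtools, HTSeq, limma 3.42.2 and GRCm38 (mm10). The 92 ERCC spike-ins and 5 summary lines, which held a median of 4.78% (no feature), 2.41% (ambiguous), 18.2% (low quality) and 4.64% (not aligned) of reads, were left out. Symbols and places came from GENCODE M21, where 54487 of 55385 identifiers matched exactly, 657 without the version and 241 not at all.

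Counts were tested with edgeR 4.0.16 in R 4.3.3 (quasi-likelihood test, TMM, filterByExpr at a count of 10 and a total of 15, Benjamini-Hochberg threshold 0.05). Alternatives used DESeq2 1.42.0, limma 3.58.1, other scaling, filters and Alb limits, and left out each mouse. The fits were also run on simulated data, and the outcome is not given here. Over 73 pairs of libraries 0 were identical, and chi-square over its degrees of freedom was 1.37 or more. Mouse numbers in the titles pair the regions: deviations of the same mouse in hypothalamus and another region correlated with a median of 0.0705 (amygdala) and 0.0700 (prefrontal cortex), over 0.1 in 3 of 18 pairs each. Named genes were the 10 of smallest p in each direction, the 8 in each direction without the Alb-high libraries, all tested neuropeptides, up to 3 members of each other list (the 2 of smallest p and the most abundant) and label checks. Members and lists were chosen with earlier results of these data known.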

Additional observations from a re-analysis of the deposited data

Results flagged for a closer look

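Some libraries lay far from the others of their group, by a test of the gap to the nearest library against the range of the group. Among 150 tests of library measures, label checks, neuropeptides and the genes of smallest p, 12 were met, and chance meets about 1 in 20 groups. Air mouse 12, the library with the fewest reads, had the highest Snap25 (1857 CPM), Cck (506.9) and Slc17a7 (53.4) in Air and the lowest Ncl (247.2). Air mouse 15 had the highest Npy (21.0 CPM), Adcyap1 (197.0), Hdc (79.8) and Nkx2-1 (72.7). CIE mouse 4 had the highest Oxt (1485 CPM), Crh (25.8) and Ucn3 (25.5) in CIE, and CIE mouse 16 the highest Nts (73.5). The part of dissection in these values was not tested.

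A liver signal above the Air level was present outside hypothalamus. Among CIE mice 1 to 4, the lowest liver sum, with Alb and without Ttr, was 619.6 CPM in amygdala and 757.3 in prefrontal cortex, where the highest Air values were 50.3 and 67.0. The lowest Xist in prefrontal cortex of these mice was 4.74 CPM, and the highest in Air was 2.31. In amygdala these groups overlapped, with a lowest Xist of 4.49 CPM in mice 1 to 4 and a highest of 4.80 in Air.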

How the results depend on the processing

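For the 18 libraries, the count of 0 genes called by edgeR (988 at an unadjusted p under 0.05) became 1 (Hspa1b) at an adjusted p under 0.1, 83 with DESeq2 (25 of them tested by edgeR, since DESeq2 kept more genes of low count), 1 (Ttr) with limma voom, 116 with no filter on low counts and 3 with a filter of at least 1 CPM. Of the 116, 98 (84.5%) had each Alb-high library above all others. Of the 13102 genes tested with the filter, which held 22 of the 116, 62 did so. Hspa1b, Hspa1a, Dnajb1, Ttr, Ttll11, Lfng, Phf23 and Rps26 were also among the 116. It was 0 with limma on the deposited voom values, a robust spread, RLE size factors, library size alone, the liver sum as a covariate and the liver markers left out. Leaving out single mice gave counts from 0 to 7. It was 7 without CIE mouse 5 (Apoa2, C3, Rbp4, Apoc3, Apoa1 and Apoc1 higher, Hspa1b lower), 2 without Air mouse 8 (Ttll11 and Hspa1b), and 1 without Air mouse 12 (Ttr), 14 or 15 (Hspa1b for both), and 0 otherwise. The cause was not tested.

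Without the Alb-high libraries, the count of 0 by edgeR (600 at an unadjusted p under 0.05) became 1 with DESeq2 (Tnrc6b) and was 0 under all other alternatives, Alb limits of 20 and 100 CPM and each mouse left out included. The sex and region terms gave 0 by edgeR (789, 425 and 376 at an unadjusted p under 0.05) and under every alternative run, DESeq2 and the mouse as a replicate block included. Genes of low count carry wide errors at 1686751 to 3367561 reads per library, and 7 of 37 liver markers reached the filter.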
